A study of Mus musculus with 6 samples.

Results

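The 10 genes described here are 9 mouse UDP-glucuronosyltransferases that lie outside the Ugt1a locus (Ugt2a3, Ugt2b1, Ugt2b5, Ugt2b34, Ugt2b35, Ugt2b36, Ugt2b38, Ugt3a1 and Ugt3a2), together with Ugdh, the gene of the enzyme that makes UDP-glucuronic acid, the sugar donor of the UGT2 enzymes. They were selected by gene name, and they are 10 of the 18194 genes with a probe set of their own. The annotation assigned 12 probe sets to them, none of which was shared with another gene. Ugt2b34 and Ugt3a1 had 2 probe sets each, and a gene's value is that of its probe set with the highest mean over the 6 arrays.

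Liver RNA was hybridized to whole-genome Affymetrix mouse arrays, 1 array per mouse, from 3 GHRH-KO mice and 3 wild-type littermate controls. GHRH-KO mice lack growth hormone-releasing hormone in the whole body and therefore have isolated growth hormone (GH) deficiency, and the comparison addresses how hepatic expression of the conjugating enzymes differs in that state. All 6 mice were males of mixed C57BL6 and 129SV descent, were fed the same standard diet, were 10 months old according to the methods (a heat map label of the study gives another age) and were fasted for 6 to 8 h before liver collection. Control mice are replicates 1 to 3 and GHRH-KO mice replicates 4 to 6.

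UDP-glucuronosyltransferases are membrane enzymes of the endoplasmic reticulum. They join glucuronic acid from UDP-glucuronic acid to bilirubin, steroids, bile acids, thyroid hormone and drugs, and the glucuronides leave the hepatocyte in bile or blood. Enzymes of the UGT2 family are best known for steroids, bile acids and phenols, and those of the UGT3 family use other UDP-sugars. The dehydrogenase encoded by Ugdh makes UDP-glucuronic acid from UDP-glucose.

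On chromosome 5 the reference gene order was Ugt2b34, Ugt2b1, Ugt2b35, Ugt2b36, Ugt2b5, Ugt2b37, Ugt2a3 and Ugt2b38, and Ugdh lay elsewhere on that chromosome. Ugt3a1 and Ugt3a2 were neighbours on chromosome 15. The 250 bases before the annotated start are shown for 4 members from RefSeq (GRCm38.p6), each 5′ to 3′ along the gene's own strand and ending at the base before the start. Ugt2b1 is shown as the gene called in GHRH-KO liver, with capitals for a match to ATTGAT, a core bound by Onecut factors, on the opposite strand. Ugt2b5 and Ugt2b38 are shown as the most alike pair, with capitals for bases that differ from the aligned base of the other gene or have no partner in the alignment. Ugdh is shown with capitals for its matches to TGACNNNGC, the antioxidant response element bound by NRF2.
Ugt2b1 (chr5:86926504-86926753, minus strand): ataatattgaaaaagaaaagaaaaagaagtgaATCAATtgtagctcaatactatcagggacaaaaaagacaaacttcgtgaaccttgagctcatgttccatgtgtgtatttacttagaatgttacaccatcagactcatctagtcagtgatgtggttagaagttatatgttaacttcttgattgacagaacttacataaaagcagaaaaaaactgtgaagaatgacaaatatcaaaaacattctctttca
Ugt2b5 (chr5:87140341-87140590, minus strand): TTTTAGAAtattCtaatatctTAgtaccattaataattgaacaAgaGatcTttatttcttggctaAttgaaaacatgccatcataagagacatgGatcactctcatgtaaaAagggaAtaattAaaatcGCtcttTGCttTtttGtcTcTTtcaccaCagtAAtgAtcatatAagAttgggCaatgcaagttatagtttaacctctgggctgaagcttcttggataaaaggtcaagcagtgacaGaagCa
Ugt2b38 (chr5:87424204-87424453, minus strand): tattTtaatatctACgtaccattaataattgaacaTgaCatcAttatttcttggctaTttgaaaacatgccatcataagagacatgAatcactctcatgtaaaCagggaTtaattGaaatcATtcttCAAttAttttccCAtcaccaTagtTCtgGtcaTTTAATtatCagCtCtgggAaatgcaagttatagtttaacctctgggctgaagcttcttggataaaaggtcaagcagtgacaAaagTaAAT
Ugdh (chr5:65435843-65436092, minus strand): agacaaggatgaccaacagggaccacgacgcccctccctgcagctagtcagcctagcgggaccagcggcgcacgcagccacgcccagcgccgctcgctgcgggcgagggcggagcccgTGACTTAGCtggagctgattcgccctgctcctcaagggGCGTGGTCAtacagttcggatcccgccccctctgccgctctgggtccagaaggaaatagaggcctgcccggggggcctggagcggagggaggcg
The sequence before Ugt2b5 was nearly that of Ugt2b38, with 212 identical bases among 240 aligned ones (88.3%), and the next most alike pair, Ugt2b36 and Ugt2b5, reached 69.6%. The match to ATTGAT in Ugt2b1 began 218 bases before the start, and the matches to TGACNNNGC in Ugdh began 132 and 94 bases before it.

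These letters were searched on both strands in the promoters of the 9 members with an entry in the table and in all 32851 promoters of the same length (250 bases before to 50 bases after the start). ATTGAT occurred in Ugt2b1 and Ugt2b36 and in 7.54% of all promoters. In Ugt2b36 the match lay after the start, at bases 19 to 24. TGACNNNGC occurred in Ugdh alone among the members and in 12.4% of all promoters. TTCNNNGAA, the form bound by STAT5, occurred in none of the 9 member promoters and in 8.3% of all.

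Of the 10 genes, Ugt2b1 was called lower in GHRH-KO liver and none was called higher. A gene was called when its limma p, after Benjamini-Hochberg adjustment across every tested probe set, was under 0.05 and its fold change was above 1.5 or below 0.67. The background for a lower call was 0.97% of the 12469 genes tested and for a higher call 0.786%. All 10 members passed the intensity filter, Ugt2b38 only through its control values. Before adjustment for multiple testing 3 of them were lower (Ugt2b1, Ugt2b35 and Ugt2b38) and 1 was higher (Ugt3a1) at p under 0.05, against 10.1% lower and 9.15% higher over all genes tested, so that 1 higher gene of 10 was near the background. Given how it passed the filter, Ugt2b38 could count only as lower, so it adds no support to the lower count. The median log2 fold change of the members was -0.11, against 0.00329 for all genes tested.

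The groups did not overlap for 5 of the 10 genes. All GHRH-KO values lay below all control values for Ugt2b1, Ugt2b35, Ugt2b5 and Ugt2b38, which holds for 15.7% of all genes tested, and above them for Ugt3a1, which holds for 12.7%. Here too Ugt2b38 could count only as lower and adds no support. The values of Ugt2b34, Ugt2b36, Ugt2a3, Ugt3a2 and Ugdh overlapped between the groups. In whole liver a lower level can come from fewer cells of a type or from less RNA per cell, and these cannot be told apart.

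**Figure D1:**
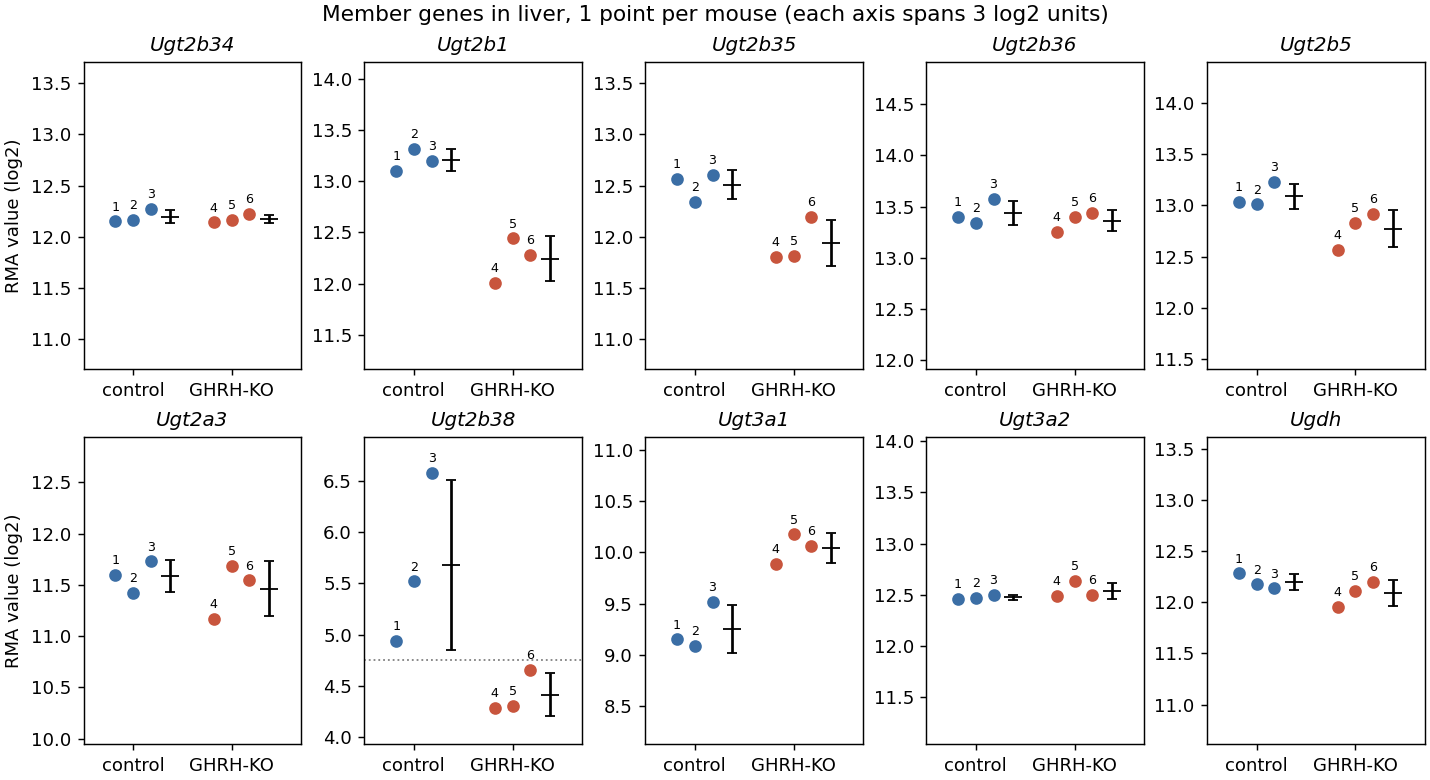
RMA values (log2) of the 10 genes in every mouse, 3 control (blue, replicates 1 to 3) and 3 GHRH-KO (red, replicates 4 to 6), with mean ± SD bars beside the points and a vertical axis of the same length in every panel. Ugt2b1 is lower in all 3 GHRH-KO mice and Ugt3a1 higher, Ugt2b34, Ugt2b36 and Ugt3a2 hardly differ, and the dotted line in the Ugt2b38 panel is the highest reading of Ghrh, 4.75.

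Ugt2b1 encodes a hepatic glucuronosyltransferase of steroids and phenols. Its probe set (1424934_at) had RMA values, which are on the log2 scale, of 13.10, 13.31 and 13.19 in control replicates 1 to 3 and of 12.01, 12.44 and 12.28 in GHRH-KO replicates 4 to 6. Every GHRH-KO mouse was below every control mouse, with 0.66 log2 units between the closest pair, and the lowest value was that of replicate 4. The mean was 13.20 ± 0.11 (SD, n = 3) in controls and 12.24 ± 0.22 (SD, n = 3) in GHRH-KO mice. The log2 fold change was -0.96 (SE 0.14, 95% interval -1.30 to -0.62, limma adjusted p = 0.0279), so that the control level was 1.95-fold the GHRH-KO level (1.54 to 2.46). Its p was the 235th lowest of the 25145 probe sets tested. The study lists Ugt2b1 among its decreased genes on these same arrays, so the call is no independent evidence of that direction.

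The call of Ugt2b1 was lost when any control, GHRH-KO replicate 4 or GHRH-KO replicate 6 was left out. With 1 array left out the number of all genes called also fell, from 219 to between 82 and 166. The losses therefore do not single out these arrays. Its log2 fold change was -1.01 without control replicate 1 (adjusted p = 0.0670), -0.90 without control replicate 2 (0.107) and -0.96 without control replicate 3 (0.0998). It was -0.84 without GHRH-KO replicate 4 (0.0702) and -0.98 without replicate 6 (0.102), and it was called without replicate 5, at -1.06 (0.0294). The size of the difference therefore stayed between -1.06 and -0.84 while the call was lost in 5 of the 6 cases.

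**Figure D2:**
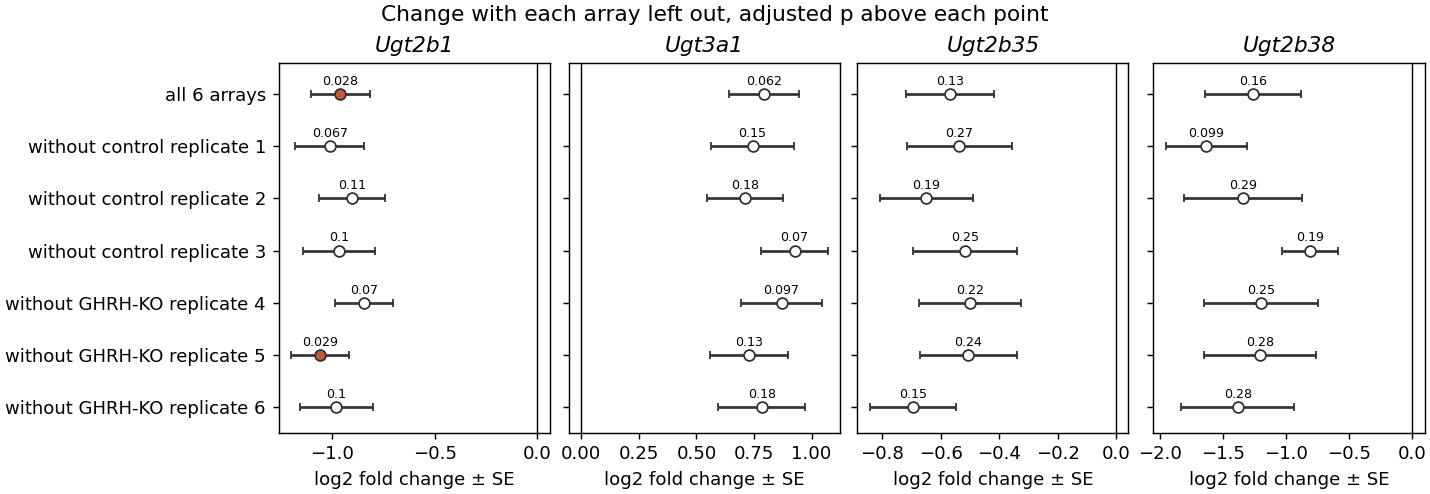
Log2 fold change (GHRH-KO minus control) ± SE of the 4 genes with an unadjusted p under 0.05, from all 6 arrays and with each array left out, the adjusted p written above each point and filled points below 0.05. Ugt2b1 stays between -1.06 and -0.84 and Ugt3a1 between 0.71 and 0.93, and the change of Ugt2b38 moves most, to -0.81 without control replicate 3.

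Ugt2b35, the next gene on the chromosome, had values of 12.57, 12.34 and 12.61 in controls and 11.81, 11.82 and 12.20 in GHRH-KO mice (1439624_at). The GHRH-KO values were all lower, and replicate 6 came within 0.15 of the lowest control. The means were 12.51 ± 0.14 and 11.94 ± 0.22 (SD, n = 3 each), a log2 fold change of -0.57 (SE 0.15, 95% interval -0.92 to -0.21) that did not pass the threshold (limma adjusted p = 0.126).

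Ugt2b5 encodes another hepatic glucuronosyltransferase, and its promoter is the one most like that of Ugt2b38. Its values were 13.03, 13.01 and 13.23 in controls and 12.57, 12.83 and 12.92 in GHRH-KO mice (1419622_at). The groups lay apart by 0.09 only. The log2 fold change was -0.32 (SE 0.14, limma adjusted p = 0.282), with a 95% interval from -0.64 to 0.00344.

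Ugt2b38 was dim, and its values were spread widely among controls. They were 4.94, 5.52 and 6.58 in controls and 4.28, 4.30 and 4.66 in GHRH-KO mice (1423397_at). All 3 GHRH-KO values were under 4.75, the highest reading of Ghrh in any array, which served as the level of a gene not expressed in liver, while all 3 controls were above it. Its mean was 5.68 ± 0.83 (SD, n = 3) in controls, which is 1.91-fold that background level. This ratio is a lower bound only in that the GHRH-KO level may lie under background. It leaves out the spread of the controls, of which replicate 1 (4.94) was close to 4.75. The fitted log2 fold change was -1.27 (SE 0.38, 95% interval -2.17 to -0.36, limma adjusted p = 0.160). That change depended on the brightest control, being -0.81 without replicate 3 and -1.64 without replicate 1.

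The remaining Ugt2b genes hardly differed between the groups. Ugt2b34, at the end of the cluster next to Ugt2b1, had values of 12.15, 12.17 and 12.27 in controls and 12.14, 12.16 and 12.22 in GHRH-KO mice (1427961_s_at). These overlap throughout, and the log2 fold change of -0.0210 (SE 0.10, limma adjusted p = 0.938) had a 95% interval from -0.27 to 0.23, which does not reach the change of Ugt2b1. That probe set may cross-hybridize. The other probe set of Ugt2b34 (1427960_at) read 12.09, 11.32 and 12.03 in controls and 11.97, 11.52 and 12.04 in GHRH-KO mice. Its difference was 0.0325 (SE 0.24, limma adjusted p = 0.959), with a wider 95% interval from -0.54 to 0.61. In both groups 1 mouse was low on 1427960_at, control replicate 2 and GHRH-KO replicate 5.

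Ugt2b36 lies between Ugt2b35 and Ugt2b5. Its values were 13.40, 13.34 and 13.57 in controls and 13.25, 13.40 and 13.44 in GHRH-KO mice (1455595_at). The groups overlapped, with a log2 fold change of -0.0751 (SE 0.12, 95% interval -0.36 to 0.21, limma adjusted p = 0.768). Ugt2a3, from the branch of the family best known from olfactory tissue but itself present in liver and intestine, had values of 11.60, 11.42 and 11.73 in controls and 11.16, 11.68 and 11.54 in GHRH-KO mice (1450133_at). Only GHRH-KO replicate 4 was below the controls, and the log2 fold change was -0.12 (SE 0.17, 95% interval -0.51 to 0.27, limma adjusted p = 0.733).

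Within each array the ratio of members that follow each other on a chromosome (the untested Ugt2b37 lies between Ugt2b5 and Ugt2a3) was compared over 7 pairs. The groups did not overlap for 6 of them, or for 5 of 6 without the pair that holds Ugt2b38, whose GHRH-KO values are at background. Of all 12429 pairs of successive tested genes 29.6% lay apart. Successive pairs on chromosome 5 share a gene, so the pairs are not separate observations. Their count partly restates which single genes lay apart, and an excess over all pairs was not tested. The log2 ratio of Ugt2b34 over Ugt2b1 was -1.01 ± 0.12 in controls and -0.0674 ± 0.20 in GHRH-KO mice (SD, n = 3 each), and the groups did not overlap. Ugt2b35 over Ugt2b36 went from -0.93 ± 0.09 to -1.42 ± 0.17, and Ugt2b36 over Ugt2b5 from 0.35 ± 0.02 to 0.59 ± 0.08, again without overlap. The ratio of Ugt2b1 over Ugt2b35, the 2 neighbours that were both lower, differed by -0.39 and overlapped. An exact permutation test (two-sided) gave p = 0.1 for the 6 pairs whose groups lay apart and 0.3 for the other, or 0.117 and 0.3 after adjustment over the pairs, and 0.1 is the smallest p that 3 arrays against 3 allow, so no pair could pass. The levels of different probe sets are not comparable, so only the change of each ratio is meaningful.

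Ugt3a1 was the only member with higher values in every GHRH-KO mouse. It encodes a transferase of the UGT3 family that uses UDP-N-acetylglucosamine. Its values were 9.15, 9.08 and 9.52 in controls and 9.89, 10.18 and 10.06 in GHRH-KO mice (1451373_at), with 0.38 between the closest pair. The means were 9.25 ± 0.23 and 10.04 ± 0.14 (SD, n = 3 each). The log2 fold change was 0.79 (SE 0.15, 95% interval 0.43 to 1.16), or 1.73-fold (1.35 to 2.23), and did not pass the threshold (limma adjusted p = 0.0622). Its other probe set (1424493_s_at) read 7.94, 7.85 and 8.60 in controls and 8.91, 9.20 and 8.96 in GHRH-KO mice. These values too lay apart, by 0.31, with a log2 fold change of 0.89 (SE 0.21, limma adjusted p = 0.102). That other probe set may cross-hybridize. When arrays were weighted by their own spread Ugt3a1 passed, at 0.73 (adjusted p = 0.0306), and over all alternatives its adjusted p ran from 0.0306 to 0.201.

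Ugt3a2, beside it on chromosome 15, encodes the family member that uses UDP-glucose and UDP-xylose. Its values were 12.46, 12.47 and 12.50 in controls and 12.49, 12.63 and 12.50 in GHRH-KO mice (1423968_at). The groups overlapped within a narrow range, and the log2 fold change was 0.0653 (SE 0.11, 95% interval -0.18 to 0.31, limma adjusted p = 0.771). The within-array ratio of Ugt3a1 over Ugt3a2 rose by 0.73 on the log2 scale, from -3.23 ± 0.21 to -2.50 ± 0.09 (SD, n = 3 each), without overlap, and is 1 of the 6 pairs at the smallest p.

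Ugdh, the source of the donor, had values of 12.28, 12.17 and 12.13 in controls and 11.95, 12.11 and 12.20 in GHRH-KO mice (1416308_at). GHRH-KO replicate 6 lay among the controls, and the log2 fold change was -0.11 (SE 0.12, 95% interval -0.39 to 0.17, limma adjusted p = 0.650).

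**Figure D3:**
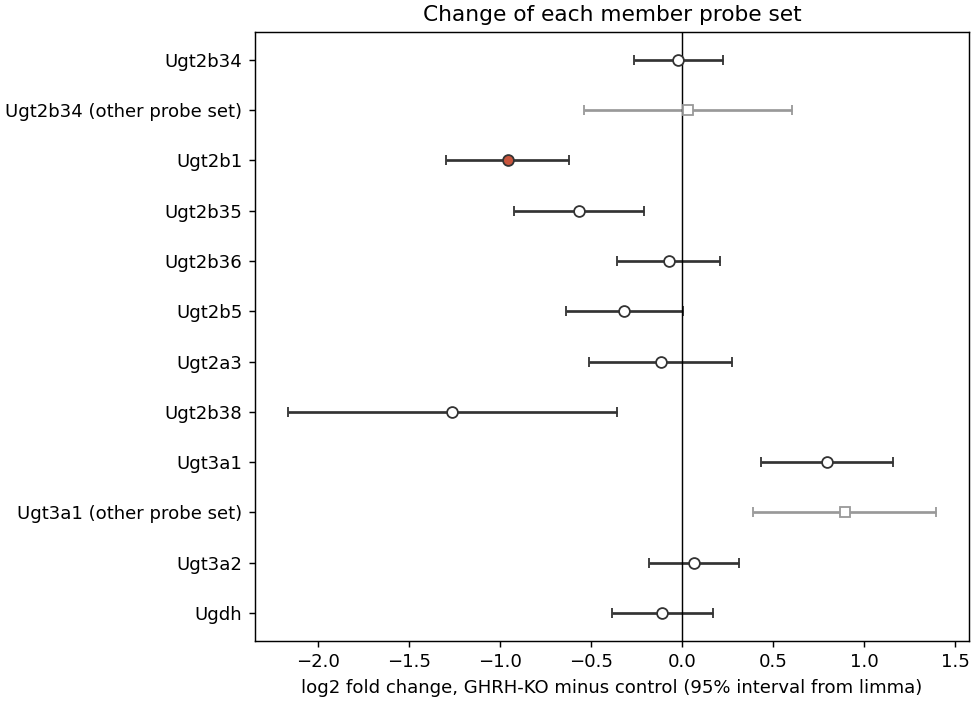
Log2 fold change (GHRH-KO minus control, horizontal axis) of all 12 probe sets with 95% intervals from limma, circles for the probe set that stands for a gene, squares for the other probe set of Ugt2b34 and Ugt3a1, and the filled circle for the called gene. The interval of Ugt2b1 runs from -1.30 to -0.62, that of Ugt3a1 from 0.43 to 1.16, and those of Ugt2b34, Ugt2b36, Ugt2b5, Ugt2a3, Ugt3a2 and Ugdh include 0.

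The rest of the family gave few values of its own. Each of the 3 probe sets of the Ugt1a locus is assigned to 8 genes of that locus, which share their last exons, and their log2 fold changes were 0.13, -0.0791 and 0.0326 (limma adjusted p = 0.551, 0.708 and 0.903). Ugt2b37, which lies between Ugt2b5 and Ugt2a3, the probe set that Ugt2a1 and Ugt2a2 share, and Ugt8a were below the intensity filter and were not tested.

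The genes that supply UDP-glucuronic acid included no called gene. Of 11 such genes listed, 8 were tested and none was called in either direction (limma), 1 was higher at an unadjusted p under 0.05 (9.15% of all genes), and their median log2 fold change was -0.0749. The lowest p was that of Pgm2, a phosphoglucomutase, whose mean was 6.03 ± 0.22 in controls and 6.78 ± 0.30 in GHRH-KO mice (SD, n = 3 each). Its log2 fold change was 0.75 (SE 0.19, limma adjusted p = 0.112).

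Of the genes that release glucuronic acid from conjugates or carry it onward, 8 of 9 were tested and none was called (limma), while before adjustment p was under 0.05 for 1 higher and 1 lower gene, shares near the 9.15% and 10.1% of all genes, with a median log2 fold change of -0.12. The lowest p was that of Gusb, the lysosomal beta-glucuronidase, with a log2 fold change of 0.43 (SE 0.17, limma adjusted p = 0.243) and overlapping groups.

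Of the 8 transporters of glucuronides, all of which were tested, Slco1a1 was called lower and none was called higher. Before adjustment p was under 0.05 for 3 higher and 2 lower genes (9.15% and 10.1% of all genes), and the median log2 fold change was 0.10. Slco1a1 encodes a sinusoidal uptake carrier of organic anions and steroid conjugates that is typical of male mouse liver. Its mean was 12.04 ± 0.32 in controls and 5.35 ± 0.19 in GHRH-KO mice (SD, n = 3 each), a log2 fold change of -6.69 (SE 0.19, limma adjusted p = 1.15e-05). Abcc4, an efflux pump of the sinusoidal membrane, had means of 5.94 ± 0.77 and 7.81 ± 0.36 (SD, n = 3 each) and did not pass the threshold, at 1.87 (SE 0.38, limma adjusted p = 0.0708).

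Of 21 transcription factors tied to UGT genes or to growth hormone in liver, 19 were tested and none was called (limma), 2 had higher and 5 lower values with p under 0.05 before adjustment (9.15% and 10.1% of all genes), and the median log2 fold change was -0.30. The lowest p was that of Bcl6, a repressor that opposes STAT5 at growth hormone target genes. It had values of 10.21, 10.43 and 10.23 in controls and 9.53, 8.49 and 8.71 in GHRH-KO mice. The groups lay apart, and the log2 fold change was -1.38 (SE 0.26, limma adjusted p = 0.0603), a call that was reached without GHRH-KO replicate 4 (-1.69, adjusted p = 0.00874). Besides Bcl6, those lower before adjustment were Onecut1 (-1.48, limma adjusted p = 0.113), Nr1i2 (-0.41, 0.210), Foxa1 (-0.39, 0.200) and Ahr (-0.51, 0.252). Those higher were Stat5b (0.57, 0.143) and Ppara (0.48, 0.202). Nfe2l2, the gene of NRF2, had a log2 fold change of 0.21 (limma adjusted p = 0.679), and Nr1i3, the gene of the xenobiotic receptor CAR, one of -0.16. These are RNA levels, whereas the study reports more nuclear Nrf2 protein and, by RT-PCR, more mRNA of Nrf2-dependent genes.

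**Figure D4:**
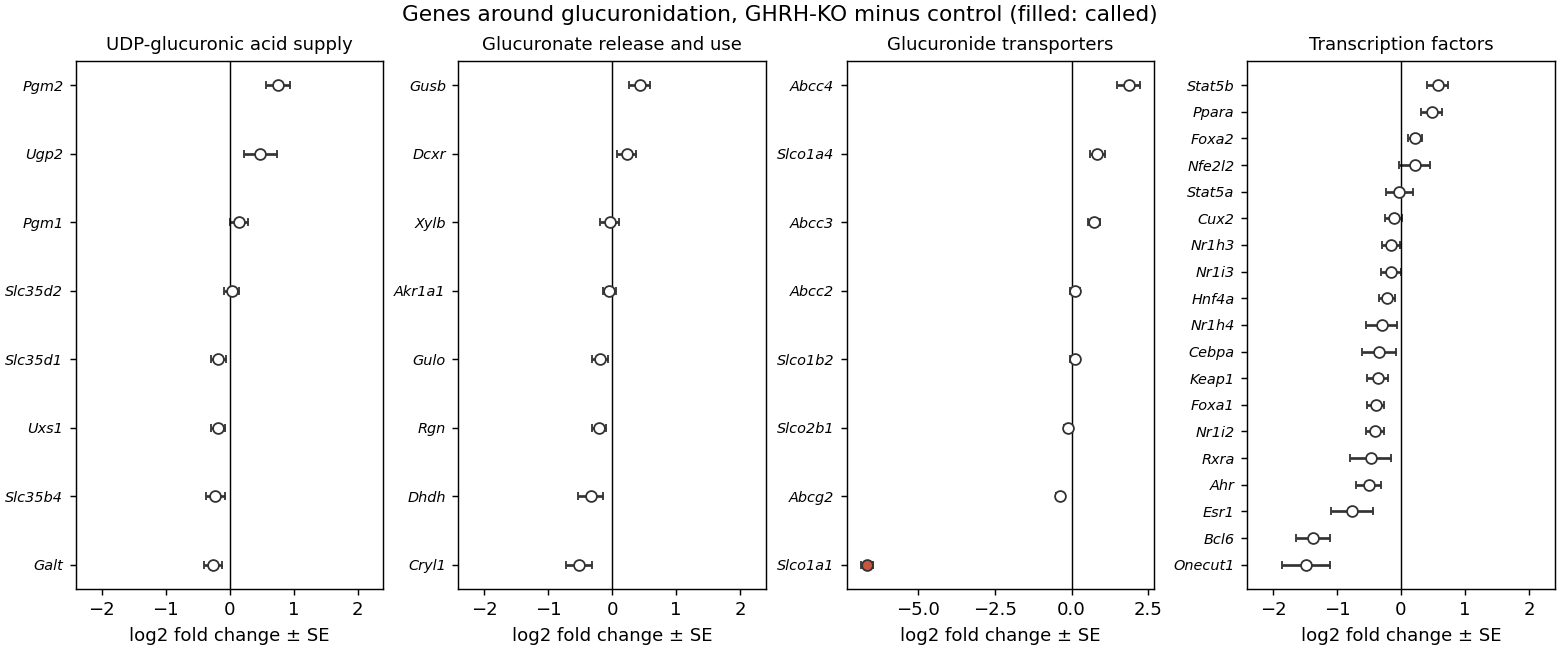
Log2 fold change (GHRH-KO minus control) ± SE of the tested genes that supply UDP-glucuronic acid, release or use glucuronate, carry glucuronides, or control these genes, 1 panel per list, with filled points for called genes. Slco1a1 is the only filled point, at -6.69 on a wider axis than the other lists, and Abcc4 at 1.87 and Bcl6 at -1.38 did not pass the threshold for adjusted p.

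By the size of the root mean square difference between centred values over the 6 arrays, the 5 genes with the pattern most like Ugt2b1 were Npr2 (0.104 log2 units), Syt1 (0.112), Ttc39c (0.124), Tmem184c (0.128) and Nav2 (0.137). Their log2 fold changes lay between -1.03 and -0.73, a closeness that follows from how they were chosen. For Ugt2b36, taken because its probe set has the highest mean RMA value, which does not rank the genes' own levels, they were Cpox (0.0219), Ace (0.0300), Spag4 (0.0323), Dis3l (0.0336) and Abce1 (0.0344).

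The arrays were alike in scale, with medians from 4.95 to 4.99 and pairwise correlations over probe sets from 0.973 to 0.994. Ghrh itself, a gene of the hypothalamus, was at background in all 6 livers and so checks no label, whereas Igf1, which depends on GH, fell by 5.58 on the log2 scale (SE 0.14, limma adjusted p = 5.56e-06). Of 11 hepatocyte markers 9 had a probe set of their own and were tested, and none was called. Their summed level on the linear scale, which the brightest probe sets dominate, was 122741 to 125448 in GHRH-KO liver and 117726 to 120759 in controls, while Hnf4a among them had a log2 fold change of -0.21 (limma adjusted p = 0.395). The markers of Kupffer, lymphocyte, endothelial, stellate and cholangiocyte populations held no called gene. Before adjustment p was under 0.05 for 1 of 10 Kupffer markers (Cd68, 1.19, limma adjusted p = 0.155) and for 2 of 7 stellate markers (Pdgfrb, 0.90, and Col3a1, 1.16, adjusted p = 0.0884 and 0.199). It was also under 0.05 for 1 of 3 cholangiocyte markers (Sox9, -0.54, adjusted p = 0.140) and for none of the lymphocyte and endothelial ones. Over all genes tested the shares were 9.15% higher and 10.1% lower. The summed levels overlapped between the groups for these 5 populations, from 2986 to 7436 in controls and 3374 to 8369 in GHRH-KO mice for Kupffer markers and from 4419.6 to 6788 and 5896 to 7208 for stellate markers. The summed level of the erythroid markers was lower in GHRH-KO liver (658 to 940.5, against 1692 to 2392 in controls), through Alas2, which fell by 1.36 (limma adjusted p = 0.0219), with Hba-a1 at background, and the part of these markers in the results was not tested.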

How the data were processed

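Livers of 3 GHRH-KO and 3 control mice were profiled, 1 array per animal. Per the labels and the methods, the authors processed the arrays by RMA (background correction, quantile normalization and summary of probes) and deposited log2 values for 45101 probe sets, with no detection filter applied to that table. The version of their software is not given in the sources used here. The precision is limited by 3 arrays per group.

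The array's 64 control probe sets were set aside and the 25145 brightest of the others, with a mean of 4.64 or more, entered the test, as many as the methods keep by a detection filter that cannot be repeated from RMA values. The platform annotation gave 1 gene for 21387 of them, several for 596 and none for 3162. The difference between GHRH-KO and control was estimated in R 4.3.3 by limma 3.58.1 (lmFit and eBayes, two-sided), with Benjamini-Hochberg adjustment across every tested probe set. Genes counted as called at an adjusted p under 0.05 and a fold change above 1.5 or below 0.67. Where a group mean was at or under the highest Ghrh value, the other group's mean was compared with that value. The ratio is a lower bound only as to the dim group, and leaves out the spread of the other group. The script was tested on simulated data.

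Named genes are all members, Ghrh, Igf1, every called gene of each list or otherwise that with the lowest p, and the genes of nearest pattern. Abcc4, Abcc3, Slco1a4, Abcg2, Nfe2l2, Nr1i3, Cryl1, Onecut1, Nr1i2, Foxa1, Ahr, Stat5b and Ppara were added after their values were seen. So were the markers Alas2, Hba-a1, Hnf4a, Cd68, Pdgfrb, Col3a1 and Sox9. The members, lists and thresholds were chosen with earlier results of these data known. Promoters are RefSeq sequences, searched and aligned with Biopython 1.88 in Python 3.11.15, and ratios were tested with scipy 1.17.1. Figures were drawn with matplotlib 3.10.9. Alternatives changed the filter, the probe set of a gene, cross-hybridizing probe sets, normalization, the variance model, array weights and the arrays included. Ugt3a2 had no entry in the promoter table. Protein sequences, some genes of the lists and 1 planned motif are not reported here.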

Additional observations from a re-analysis of the deposited data

How the results depend on the processing

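The members called lower numbered 1 (Ugt2b1) under all 6-array alternatives, which changed the filter, the probe set of a gene, the normalization, the variance model or the array weights, and 0 to 1 with 1 array left out. With control replicate 2 and GHRH-KO replicate 5, the arrays of widest spread, both left out it was 0, and the log2 fold change of Ugt2b1 was -1.002 (adjusted p = 0.0759). Leaving out 1 array gave Ugt2b1 values from -1.06 to -0.84, and its adjusted p ran from 0.00822 to 0.107 over the 16 alternatives. Members called higher numbered 0 except with array weights, where the number was 1 (Ugt3a1, 0.73).

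Ugt2a3 reversed without GHRH-KO replicate 4 (0.0298, with -0.229 to 0.0298 over single arrays left out). Ugt2b34 reversed as the mean of its probe sets (0.00579), without the probe set that may cross-hybridize (0.0325) and without control replicate 3 (0.0162). Single arrays left out gave Ugt2b34 values from -0.0441 to 0.0162. None of these passed a threshold. Ugt2b38 had no value under the stricter filter.

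Of the genes in the glucuronidation lists 1 was called (Slco1a1). The number was 3 with the probe set of lowest p (Cryl1 and Onecut1 besides), 2 with an intensity trend and robust estimation (Bcl6), 3 with array weights (Abcc4 and Bcl6), and 1 to 2 with 1 array left out. Over all genes 219 were called, 536 with array weights, 106 without both arrays of widest spread, and 82 to 166 with 1 array left out. Fewer arrays leave fewer degrees of freedom, and no other cause was tested.

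No paired analysis was possible because the groups share no replicate numbers. RMA values carry no detection call, so low signal limits Ugt2b38 alone among the members.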
